A study of Vitis vinifera with 3 samples.

Results

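VvmiR3623 and VvmiR3623* are the 2 strands of 1 grapevine miRNA precursor, and they are 2 of the 161 known VvmiRNAs and VvmiRNAs* in the supplementary sequence list of the study. The pair was chosen by measured values, namely because its 5′ fragments were more numerous in the ripe berry than at the stone-hardening stage while the large VvmiRNA groups had fewer. The rise of VvmiR3623 is therefore given as a description without a test. A 5′ fragment was a read of 14 to 17 nt identical to the 5′-end of the mature strand. Both strands had such reads in every library, with 70 reads of VvmiR3623 and 22 reads of VvmiR3623* in all.

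The reads came from libraries that the study describes as small RNA libraries of grape berries (Vitis vinifera) at 3 stages. These were young berries at 5 days after flowering (YB, 5 DAF), stone-hardening berries at 45 DAF (SB) and mature, ripening berries at 90 DAF (MB). The study names ‘Wink’ as its experimental cultivar and gives it for the SB library, and the labels give no cultivar. Each stage had 1 library, so no difference between stages has a replicate check, and whole berries were used without a treatment that the labels name. The text of the study treats YB and MB as separate libraries whose data were not shown, and a batch and a stage cannot be told apart. Degradome sequencing of mRNA is named in the labels too, and the protocol behind the deposited reads could not be settled. All of these reads were 3 to 17 nt long, so the full-length strands are not amongst them and their levels were not analysed here.

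Plant miRNA genes are transcribed into hairpin RNAs, from which DICER-LIKE1 cuts a short duplex. One strand of the duplex, the miRNA, is loaded into an ARGONAUTE protein and guides it to complementary mRNAs, whereas the other strand, the miRNA*, is mostly degraded. In Arabidopsis, HEN1 methylates the 3′-ends of the duplex, and the SDN exonucleases shorten miRNAs from the 3′-end. miR3623 was described in grapevine, and no target of it was examined here.

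The mature strands are shown because every fragment was read against them. Both are 22 nt long and are written as DNA, with the seed (bases 2 to 8 from the 5′-end) in capitals.
VvmiR3623: tGGTGCTTggacgaatttgcta
VvmiR3623*: tCACAAGTtcatccaagcacca

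The study placed VvmiR3623 on the 3p arm and VvmiR3623* on the 5p arm of the precursor. No other entry of the list had either seed, and within the list the fragments of 14 nt or more matched 1 strand each. Whether they also match other grapevine sequences, including VvmiRNAs outside the list, was not tested. The longest start that VvmiR3623 shared with another listed VvmiRNA was 5 nt (VvmiR2950*), and for VvmiR3623* it was 3 nt (VvmiR3624 and VvmiR397a). Folded against each other, the strands formed 18 base pairs, of which 1 was a G·U pair, with a predicted energy of −27.5 kcal/mol. Base 1 of VvmiR3623 paired with base 22 of VvmiR3623*, so the 5′-ends of the 2 strands lie at opposite ends of the duplex. The first 14 nt of VvmiR3623 held 13 of the 18 pairs and those of VvmiR3623* held 10. The fragments of the 2 strands thus overlap within the duplex. In the RefSeq annotation of the grapevine genome (assembly ASM3070453v1), the gene MIR3623 is an miRNA gene that overlaps 0 other genes, and its neighbours are the protein-coding genes LOC100261322 and LOC104882764.

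The YB, SB and MB libraries held 39791, 33228 and 75960 short reads. These sums cover a length class only and are not the depths of the libraries. The smallest number of reads taken as detectable, 3 reads, equals 75.4, 90.3 and 39.5 per 1000000 short reads at YB, SB and MB. In these libraries 3660, 1585 and 298 reads, respectively, were 5′ fragments of any listed VvmiRNA. Listed VvmiRNAs with the same first 14 nt cannot be told apart by the shortest fragments and were joined, which gave 86 groups, of which 38 had a fragment. Intervals below are exact 95% intervals, and they cover counting error only, with each read taken as an independent molecule. Copies made by PCR are not independent molecules, and where reads are such copies the intervals are too narrow.

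VvmiR3623 had few fragments until the berries were mature. The YB library held 3 reads of it (95% Poisson interval 0.619 to 8.77), the SB library 6 (2.202 to 13.1) and the MB library 61 (46.7 to 78.4). Per 1000000 short reads these were 75.4, 180.6 and 803, respectively. By these intervals MB stood apart, and the intervals of YB and SB overlapped. Amongst the 86 groups VvmiR3623 ranked 13 at YB, 7 at SB and 2 at MB, where 1 group, VvmiR166b–h, had more fragments (112 reads). Since the berry is a mixture of tissues, a change in the number of cells that hold the fragments and a change in their amount per cell cannot be told apart. Whether the full-length miRNA changed too was not tested.

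The log2 ratio of VvmiR3623 was 2.15 for MB/SB (95% interval 0.95 to 3.65), which is 4.45-fold more reads per 1000000 short reads at MB. For MB/YB it was 3.41 (1.80 to 5.73). For YB/SB it was −1.26 with an interval of −3.89 to 0.97, which includes no difference. VvmiR3623 fragments were thus most numerous at MB, which is the rise that the pair was chosen for. SB and YB were not separated at this depth.

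VvmiR3623*, the strand opposite the miRNA in the duplex, had its most fragments at SB. The reads numbered 6 for YB (95% Poisson interval 2.202 to 13.1), 11 for SB (5.49 to 19.7) and 5 for MB (1.62 to 11.7). Per 1000000 short reads these were 150.8, 331 and 65.8. The Poisson intervals of the 3 read numbers overlapped. MB had the lowest number of reads and the largest number of short reads to which they were scaled. The log2 (MB/SB) was −2.33 (−4.21 to −0.69), the log2 (YB/SB) was −1.13 (−2.85 to 0.43) and the log2 (MB/YB) was −1.20 (−3.25 to 0.78). Only the first of these intervals lies below 0.

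The direction of VvmiR3623* depends on the total that the reads are set against, whereas the log2 (MB/SB) of VvmiR3623 stayed above 0 with every total tried. At MB, 57.2% of the short reads belonged to 2 abundant sequence families, which held 16.96% at YB and 16.6% at SB. With these families left out, the log2 (MB/SB) was 3.11 for VvmiR3623 and −1.37 for VvmiR3623*. Scaling to the clean reads of the study added 1.29 to every log2 (MB/SB) and gave 3.45 and −1.04. By the length filter that the study describes, the clean reads leave out reads as short as the fragments. Relative to the fragments of all other listed VvmiRNAs, which fell from 1568 to 232 reads, the values were 6.10 for VvmiR3623 and 1.62 for VvmiR3623*, so that the latter was higher at MB than at SB on this scale.

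**Figure D1:**
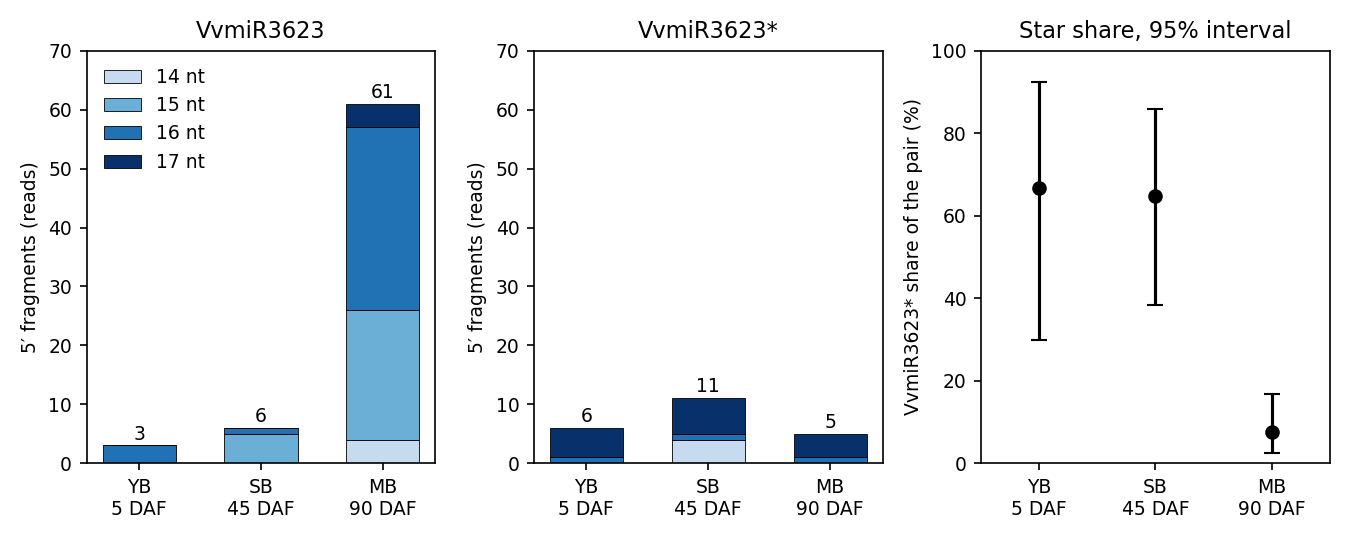
The left and middle plots show the 5′ fragments (reads) of VvmiR3623 and VvmiR3623* in the library of each stage, with bars divided by read length, and the right plot shows the share of VvmiR3623* in the fragments of the pair (%) with its exact 95% interval. VvmiR3623 reaches 61 reads at MB, VvmiR3623* stays between 5 and 11 reads, and the share of VvmiR3623* falls from 64.7% at SB to 7.58% at MB.

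A share within the pair needs no library total, because both strands were read in the same library. It does depend on the lengths counted, since fragments longer than 17 nt could not be seen on either strand. Over the 3 libraries, 68.2% of the VvmiR3623* fragments and 5.71% of the VvmiR3623 fragments were 17 nt long. VvmiR3623* had 6 of the 9 fragments of the pair at YB, or 66.7% (exact Clopper-Pearson interval 29.9% to 92.5%). At SB it had 11 of 17, or 64.7% (38.3% to 85.8%). At MB it had 5 of 66, or 7.58% (2.51% to 16.8%), and VvmiR3623 had the other 92.4%. The share at MB was 13.9% with reads at any position inside the strands (10 of 72) and 33.3% with each distinct sequence counted once (2 of 6). The strand with more fragments was thus VvmiR3623* in both earlier libraries and VvmiR3623 at MB. At YB and SB an equal split of the strands lies inside the interval, and the interval at MB does not overlap those of YB or SB. Since the pair was chosen for the rise at MB, the fall of this share is part of the same choice.

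The pair had its largest share of the VvmiRNA fragments at MB. It was chosen because it rose while the large groups fell, so this gain is part of the same choice. Its fragments were 0.0226% of the short reads at YB (0.0103% to 0.0429%), whereas SB had 0.0512% (0.0298% to 0.0819%) and MB 0.0869% (0.0672% to 0.111%). As a share of all listed VvmiRNA fragments, VvmiR3623 had 0.0820% (0.0169% to 0.239%) in YB, 0.379% (0.139% to 0.822%) in SB and 20.5% (16.03% to 25.5%) in MB. VvmiR3623* had 0.164%, 0.694% and 1.68% of them, respectively. Its reads went from 11 at SB to 5 at MB, but all listed fragments went from 1585 to 298. At MB the 2 strands together made 22.1% of all listed fragments, from 2 of the 23 groups that had any.

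The tags that carried most of the reads are shown for both strands, since the strands differed in where their fragments of up to 17 nt ended. The last base of each tag is in capitals.
VvmiR3623, 15 nt: tggtgcttggacgaA
VvmiR3623, 16 nt: tggtgcttggacgaaT
VvmiR3623*, 14 nt: tcacaagttcatcC
VvmiR3623*, 17 nt: tcacaagttcatccaaG

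Within the counted lengths of 14 to 17 nt, VvmiR3623 fragments ended mainly at base 15 or 16. The 15 nt tag had 0, 5 and 22 reads at YB, SB and MB, and the 16 nt tag had 3, 1 and 31. Both tags had their most reads at MB, and no interval was computed for either. The 14 nt and 17 nt tags were each read 4 times at MB and in no other library. Amongst the 14516 distinct tags of 14 to 17 nt at MB, the 16 nt tag ranked 95 and the 15 nt tag 149. Shorter reads were rare, with 1 read of 12 nt and 1 of 13 nt at MB.

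Of the tags of the pair, 2 had at least 10 reads at SB or MB, both of VvmiR3623. The 15 nt tag had a log2 (MB/SB) of 0.94 and the 16 nt tag, with its 1 read at SB raised to 3, of 2.18. Of the 544 single sequences with at least 10 reads in the higher library, 146 (26.8%) were higher at MB by a log2 of at least 1. A single sequence with more reads at MB was therefore common amongst the short reads as a whole, and nothing is read from 1 of 2 tags passing this limit.

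Within the counted lengths, VvmiR3623* fragments ended mainly at base 17, with 5, 6 and 4 reads at YB, SB and MB. Base 17 is the last end that the deposited reads can show, so fragments that end further along the strand were not seen. Its 14 nt tag was read 4 times, only in the SB library. The 16 nt tag had 1 read in each library. No read of 15 nt was found in any library, and none of 10 to 13 nt.

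Over the 3 libraries, 5.71% of the VvmiR3623 fragments were 17 nt long (4 of 70, exact interval 1.58% to 13.99%), against 68.2% for VvmiR3623* (15 of 22, 45.1% to 86.1%). For all other listed VvmiRNAs the share was 73.4% (4002 of 5451, 72.2% to 74.6%). The latter share rests on VvmiR166b–h, which had 2816 of the 4002 reads, and without this group it was 50.7% (48.7% to 52.8%). VvmiR3623 was below both shares, and the interval of VvmiR3623* includes both. VvmiR3623 instead had 38.6% of its fragments at 15 nt and 50.0% at 16 nt. All of these shares leave out longer fragments, since no deposited read exceeds 17 nt. The lengths played no part in the choice of the pair, but most of the VvmiR3623 reads are those of MB, and reads of 1 tag are not independent molecules, so the difference is given without a test.

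The stages weigh differently in these sums, since MB gave 61 of the 70 VvmiR3623 reads and 5 of the 22 VvmiR3623* reads. Within MB, 6.56% of the VvmiR3623 fragments were 17 nt long (1.82% to 15.9%), against 53.0% of the other listed fragments (46.4% to 59.6%) and 29.8% of all reads of 14 to 17 nt. Without VvmiR166b–h the share of the other listed fragments at MB was 56.7% (47.3% to 65.7%). VvmiR3623 had the lower share in each of these comparisons. At 16 nt the shares at MB were 50.8% for VvmiR3623 (37.7% to 63.9%) and 22.41% for the other listed fragments. At YB and SB, 0 of 3 and 0 of 6 VvmiR3623 fragments were 17 nt long, which is too few to compare the stages.

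Of the 11 groups with at least 10 fragments over the libraries, VvmiR3623 had the shortest mean fragment, at 15.6 nt. All means here cover 14 to 17 nt only, because the deposited reads end at 17 nt. Next were VvmiR477 and VvmiR395a–m, both at 16.1 nt. VvmiR3623* had a mean of 16.3 nt, and the highest mean was 16.9 nt for VvmiR166b–h, a group that targets HD-ZIP III transcription factors in Arabidopsis. The most frequent length was 16 nt in 3 of the 11 groups, VvmiR3623 included, and 17 nt in 8, VvmiR3623* included. These means pool libraries with different lengths, and MB gave 9 of the 10 VvmiR477 reads but 112 of the 3112 VvmiR166b–h reads. Within MB, 5 groups had at least 10 fragments, and the mean was 15.6 nt for VvmiR3623, 15.96 nt for VvmiR166b–h, 16.02 nt for VvmiR159c, 16.8 nt for VvmiR396a–d and 17 nt for VvmiR403a–f. VvmiR3623 had the shortest mean there too. Within SB, VvmiR3623* had the shortest mean of 6 such groups, at 15.8 nt over 11 reads, and VvmiR395a–m was next at 16.3 nt. No library had 10 fragments of both strands, so the strands could not be set side by side within a stage.

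**Figure D2:**
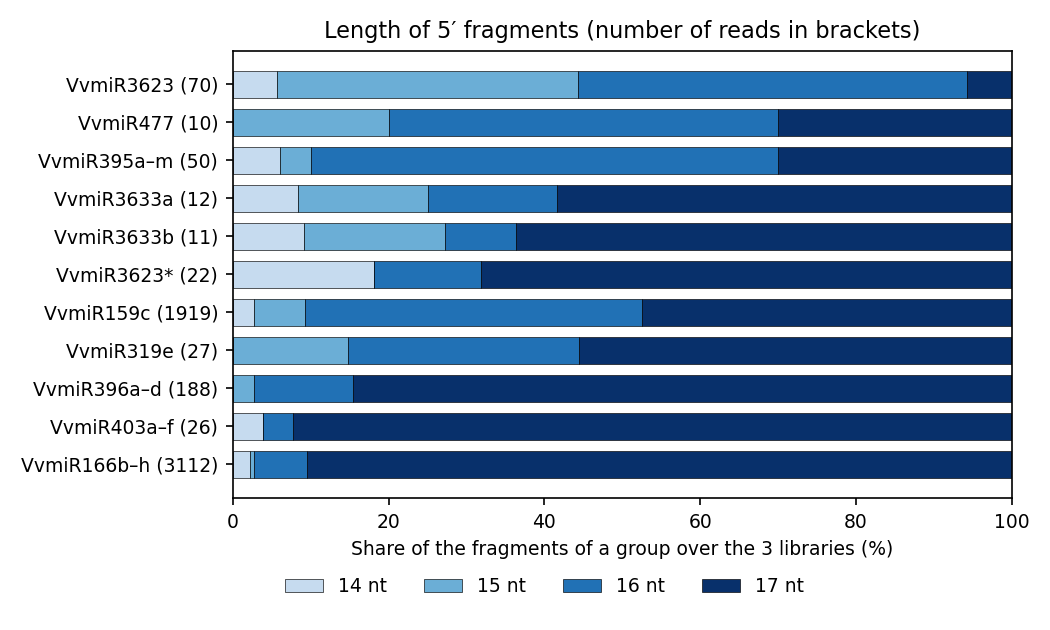
Each bar shows 1 VvmiRNA group with at least 10 fragments over the 3 libraries, with its number of reads in brackets. The bars are divided by the share (%) of fragments of 14, 15, 16 and 17 nt, and no deposited read is longer. VvmiR3623 has 5.71% of its reads at 17 nt and the shortest mean length of the 11 groups, and VvmiR3623* has 68.2% at 17 nt; MB gave 61 of the 70 VvmiR3623 reads and 5 of the 22 VvmiR3623* reads.

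Nearly all VvmiR3623 reads at MB began at base 1 of the mature strand. Of the reads of 14 to 17 nt that lay anywhere inside it, 61 of 62 began at base 1 at MB (98.4%, exact interval 91.3% to 99.96%), as did 6 of 6 at SB and 3 of 5 at YB. The single exception at MB covered bases 2 to 17. At YB 1 read covered bases 4 to 20 and 1 read bases 7 to 22.

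VvmiR3623* differed at MB, where 5 of its 10 reads inside the strand began at base 1 (50.0%, 18.7% to 81.3%). The other 5 were 5 distinct reads, found once each, which began at bases 5, 6, 7, 8 and 9 and ended at base 21 or 22. At the earlier stages 6 of 7 reads at YB (85.7%) and 11 of 13 at SB (84.6%, 54.6% to 98.1%) began at base 1. For all other listed VvmiRNAs the share was 99.0% at YB, 99.2% at SB and 95.9% at MB (92.5% to 98.0%), so the interval for VvmiR3623* at MB lies below theirs. Counted with these reads, VvmiR3623* had 10 reads at MB and 13 at SB, and its log2 (MB/SB) was −1.57.

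**Figure D3:**
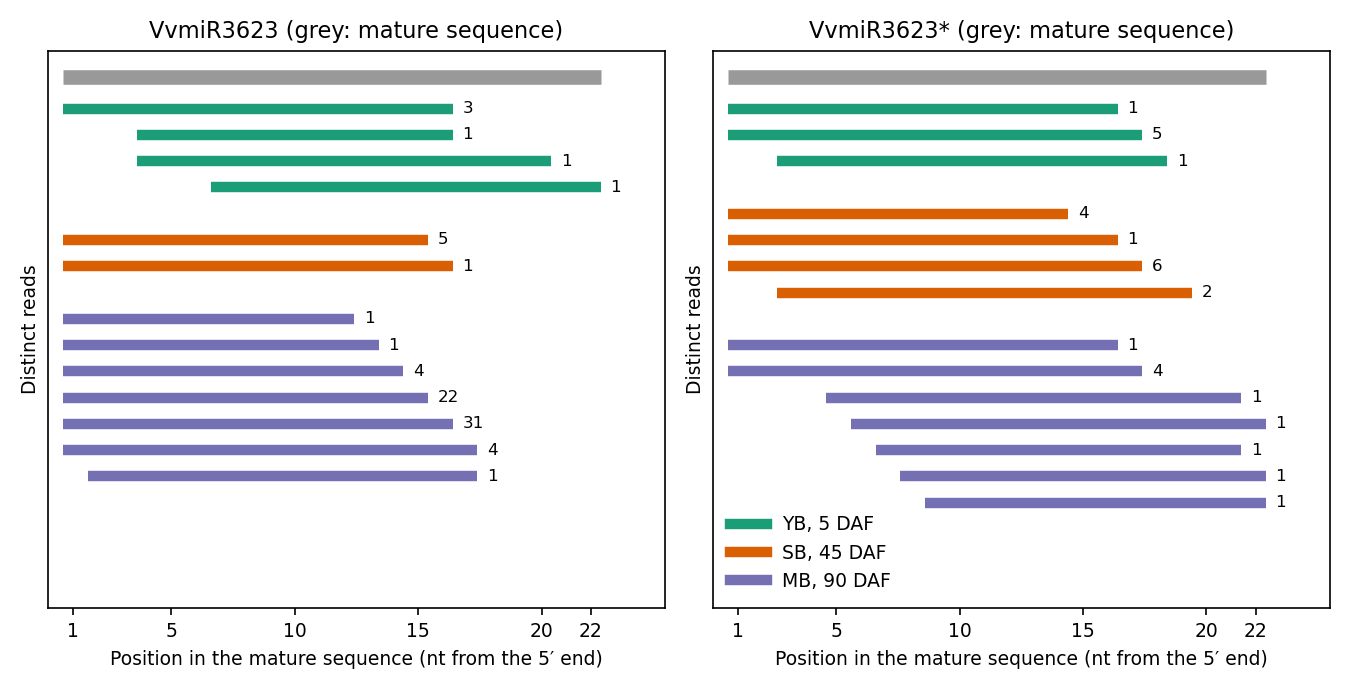
Each coloured line is 1 distinct read placed on the 22 nt of VvmiR3623 (left) or VvmiR3623* (right, position in nt from the 5′-end), with its number of reads beside it and the mature strand in grey. The MB reads of VvmiR3623 start at base 1 apart from 1 read, whereas those of VvmiR3623* include 5 single reads that start at bases 5 to 9.

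Reads with 1 different base inside the fragment were rare. Positions are counted from 1 at the 5′-end, and neither its first 2 bases nor its last base were compared. VvmiR3623 had 1 such read at MB, of 16 nt with G5A, and VvmiR3623* had 1 at MB, of 15 nt with C14A. None was found at YB or SB. Single reads lie below the floor of 3 reads, and sequencing errors and edited RNA cannot be told apart here.

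Amongst the VvmiRNA groups with enough fragments to be counted, VvmiR3623 was alone in passing a log2 of 1 upwards from SB to MB. Of the 8 groups with at least 10 fragments in the higher library, 1 (12.5%) was higher at MB by a log2 of at least 1, and this was VvmiR3623. The other direction held 6 of the 8 (75%), namely VvmiR159c, VvmiR396a–d, VvmiR395a–m, VvmiR166b–h, VvmiR319e and VvmiR3623*. The VvmiR3623* value thus lay amongst those of most other groups, between those of VvmiR319e and VvmiR166b–h. Since the rule that chose the pair used this comparison, nothing is read from these counts. VvmiR477 had 1 read at SB and 9 at MB, which is under the limit of 10 fragments, so it was not amongst the 8 groups. With its 1 read at SB raised to 3, its log2 (MB/SB) was 0.39. Whether VvmiR477 rose as VvmiR3623 did cannot be decided from so few reads, so a rise particular to VvmiR3623 was not shown.

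The groups that lost fragments include conserved miRNAs with known targets in Arabidopsis. VvmiR159c, whose relatives there target MYB transcription factors, had 684 reads at SB but 43 in the mature berry (log2 of MB/SB −5.18). VvmiR396a–d, whose relatives target growth-regulating factors, went from 99 to 13 reads (−4.12), and VvmiR166b–h from 712 to 112 (−3.86). VvmiR395a–m, whose relatives target ATP sulfurylases and a sulfate transporter, had 21 reads at SB and 1 at MB (−4.00 with the latter raised to 3). VvmiR319e, with relatives that target TCP factors, had 12 and 9 reads (−1.61). By contrast, VvmiR403a–f, with relatives that target AGO2, was counted in neither direction, with 5 reads at SB and 13 at MB (0.19). The count of 1 higher and 6 lower groups became 2 higher and 5 lower with the clean reads of the study or without the 2 abundant families, where VvmiR403a–f joined VvmiR3623. It became 4 higher and 1 lower relative to the other listed fragments.

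**Figure D4:**
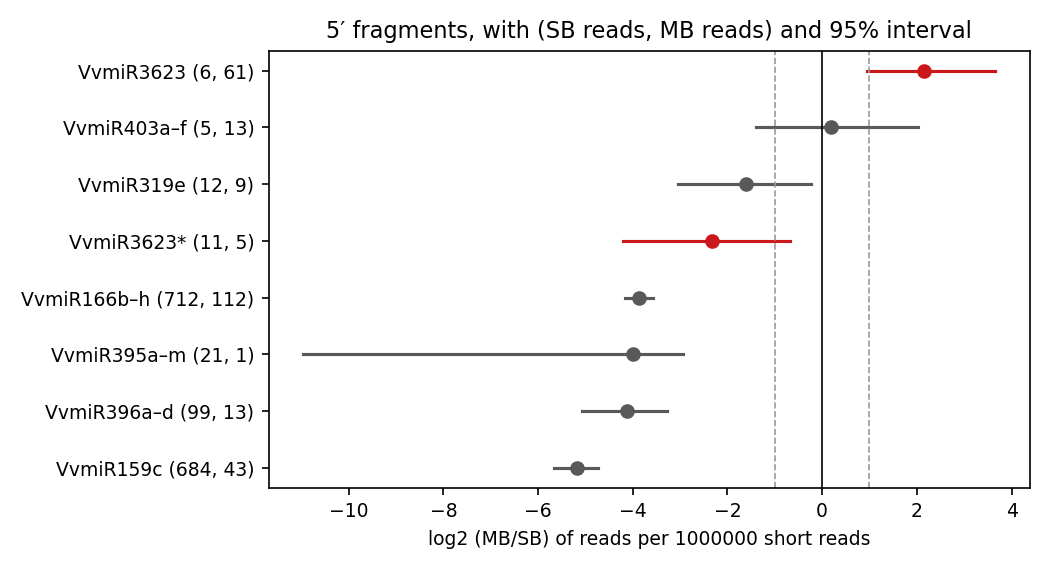
Points show the log2 (MB/SB) of reads per 1000000 short reads for the 8 VvmiRNA groups with at least 10 fragments in the higher library, with exact 95% intervals for counting error, the SB and MB reads in brackets and dashed lines at a log2 of 1 in either direction. VvmiR3623 is alone on the right of the upper line at 2.15, and 6 groups including VvmiR3623* lie beyond the lower line; the VvmiR395a–m point has its 1 read at MB raised to 3 and its interval from the reads as counted.

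In the comparisons with YB, VvmiR3623 was again the group higher at MB, 1 of 6 (16.7%), whereas 4 of the 6 (66.7%) were lower at MB than at YB. From SB to YB, 2 of 6 groups (33.3%) were lower at YB, VvmiR319e and VvmiR3623*, and 1 of 6 (16.7%) was higher, VvmiR166b–h. The 2 lower groups became 1 with TMM factors and 0 with the clean reads, with median-of-ratios factors or with at least 30 fragments. The higher group became 0 relative to the other listed fragments. VvmiR3623 had fewer than 10 fragments at YB and SB and entered no count there. The comparisons share libraries and are not independent of each other.

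The other miRNA/miRNA* pairs of the list had too few fragments to set beside the share of VvmiR3623*. Besides VvmiR3623, 16 pairs (32 entries) were listed, of which 9 had a fragment and 5 had at least 3 on a strand in a library. Their reads summed to 23, 15 and 14 in the YB, SB and MB libraries, with 9 reads as the highest single value. VvmiR3633a had 9, 1 and 2 reads, VvmiR3633b had 6, 1 and 4, and VvmiR2111 had 1, 4 and 1. VvmiR3634 had 1, 4 and 0. VvmiR2950 had 1, 0 and 2 reads and VvmiR2950* 1, 1 and 3, so it was the one pair of the 5 with at least 3 reads of its VvmiRNA* at any stage.

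The VvmiRNAs numbered next to VvmiR3623, VvmiR3624 to VvmiR3640, did not have its number of fragments at MB. Their 35 entries fell into 30 groups, of which 10 had a fragment and 3 had at least 3 in a library (VvmiR3633a, VvmiR3633b and VvmiR3634). Together they had 20, 10 and 8 reads at the 3 stages, against 3, 6 and 61 for VvmiR3623 by itself.

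The pattern of VvmiR3623 over the stages was most like that of VvmiR477. Reads per 1000000 short reads were turned into shares over the 3 libraries, and 2 groups were compared by the share that would have to move for one to become the other. VvmiR3623 had 7.12% at YB, 17.1% at SB and 75.8% at MB. VvmiR477, with 0, 1 and 9 reads, differed from it by 7.12%, and the next groups were VvmiR403a–f with 8, 5 and 13 reads (43.1%) and VvmiR319e with 6, 12 and 9 reads (57.0%). Beyond VvmiR477, with 10 reads in all, no group was close amongst the 10 compared.

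VvmiR3623* had 27.5% at YB, 60.4% at SB and 12.02% at MB. It was nearest to VvmiR319e (6.78%), VvmiR396a–d with 76, 99 and 13 reads (10.2%) and VvmiR395a–m with 28, 21 and 1 (24.6%). The 2 strands of the duplex thus had different nearest groups apart from VvmiR319e, and 3 libraries are too few for a correlation.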

How the data were processed

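For each library the authors deposited the read counts of distinct sequences, with adapters removed, identical reads collapsed and no normalization. The software of this step is not given in the sources used here. The methods of the study describe cutting RNA of about the length of small RNAs from a gel, a BGI platform with molecular identifiers and a length filter, whereas the labels name Illumina libraries and also mRNA degradome sequencing. Which of these made the deposited reads was not settled, and the effect of the gel selection on reads below 18 nt was not tested.

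Mature sequences came from the supplementary sequence list of the study (161 entries, 96 distinct sequences). Reads of 14 to 17 nt identical to a 5′-end were counted and scaled to 1000000 short reads. In log2 ratios a count under 3 was set to 3. No test was run and no p-value is given, because each stage has 1 library. Ratios carry exact intervals for 2 Poisson counts, and shares carry exact Clopper-Pearson intervals (95%). A group was counted as higher or lower with at least 10 fragments in the higher library and an absolute log2 of at least 1. Named besides the pair were the miRNA/miRNA* pairs and the VvmiR3624 to VvmiR3640 entries with at least 3 fragments in a library, the 3 nearest patterns amongst groups with at least 10 fragments, and the groups that passed the limit upwards from SB to MB. The groups that passed it downwards, and those in the length comparison, were named after their values were seen. The members and lists were chosen with earlier results of these data known.

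Other totals, lengths, matching rules, low-count rules and filters were tried. Strands were paired with RNAduplex of ViennaRNA 2.7.2. Python 3.11.15 with scipy 1.17.1, numpy 2.4.6 and matplotlib 3.10.9 was used, and R 4.3.3 gave TMM factors (edgeR 4.0.16) and median-of-ratios factors (DESeq2 1.42.0). The steps were tested on simulated data. Of 144 VvmiRNA names, 137 matched a RefSeq gene (assembly ASM3070453v1). The methods of the study name the CRIBI release of the grape genome, which is another assembly, so no coordinates are printed. Full-length reads and the precursor sequence were not used here.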

Additional observations from a re-analysis of the deposited data

Results flagged for a closer look

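At MB, 5 reads of VvmiR3623* began after base 1, and they lie outside the count of 5′ fragments on which the comparisons rest. Their sum is above the floor of 3 reads. However, they were 5 distinct sequences with 1 read each, and each of these lies below it. Whether these sequences also match other parts of the grapevine genome was not tested.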

How the results depend on the processing

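No paired analysis was possible because each stage has 1 library, and no library could be left out for the same reason. Of 11 alternatives, 10 left the log2 (MB/SB) of VvmiR3623 and 10 that of VvmiR3623* in the same direction and within the main counting interval, and the alternative without 14 nt reads, like the length shares without VvmiR166b–h, was chosen after seeing the data. Relative to the other listed fragments, VvmiR3623 moved to 6.10 (MB/SB) and 8.32 (MB/YB), and VvmiR3623* turned to 1.62 and 3.71, because those fragments fell from 1568 at SB and 3651 at YB to 232 at MB. The VvmiR3623* share was 87.5% at SB with 16 and 17 nt reads only and 33.3% at MB with each distinct sequence counted once. Set against the clean reads, the fragments of the pair equalled 8.91e-05%, 0.000148% and 0.000617% at YB, SB and MB. These values are ratios and not shares, since the length filter that the study describes leaves such short reads out. With 16 and 17 nt reads only, the share of the pair was 0.0241% of the short reads at SB and 0.0527% at MB. Without the 2 abundant families it was 0.203% at MB. Groups higher at MB than at SB numbered 2 with the clean reads, 2 without the families and 4 relative to the other fragments, and those lower numbered 1 relative to the other fragments and 3 with a filter of 30 fragments. Groups higher at YB than at SB numbered 0 relative to the other fragments, 2 with 1 different base and 2 without a filter. Groups lower at YB numbered 0 with the clean reads, median-of-ratios factors or the filter of 30, and 1 with TMM factors, 16 and 17 nt reads or 1 different base. With 16 and 17 nt reads only, VvmiR3623 had no log2 (YB/SB), since both counts were at or under 3. Counts of 3 to 11 reads at YB and SB limit every ratio. The cause of the other moves was not tested.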
